A study of Mus musculus with 14 samples.

Results

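The genes described here are 42 mouse genes of leukocyte adhesion and migration. They comprise 15 integrin chains, 9 selectin ligands, adhesion molecules and junction proteins, 11 chemokine or sphingosine 1-phosphate (S1P) receptors, and 7 proteins of integrin signalling. The genes were chosen by symbol, from a named list with no threshold on measured values, but with earlier results of these data known. All 42 were found among the 50686 genes of the count tables. RNA was sequenced in 14 libraries of HPC-LSK cells, haematopoietic progenitor lines of C57BL/6N mice whose name refers to the marrow fraction that lacks lineage markers and carries Sca-1 and Kit. The groups were lines with a knockout of Cdk6, a cell cycle kinase, transformed with BCR-ABL p210, the fusion kinase of chronic myeloid leukaemia (KO p210, n = 4), Cdk6 wild-type lines transformed with p210 (WT p210, n = 3), untransformed KO lines (n = 3) and untransformed WT lines (n = 4). Untransformed lines were grown in 12.5 ng/ml IL-6 and 2% stem cell factor, whereas p210 lines received neither cytokine, per the labels' protocols. The descriptions of the p210 libraries nevertheless carry the letters SCF, whose meaning is not stated, so it is not settled whether p210 lines had stem cell factor. If the media differed, every difference between p210 and untransformed lines given below is one of transformation and medium together, which cannot be told apart. The sample descriptions name 6 lines that were sequenced in both states, and the labels state neither how the knockout allele was made nor whether a line is a clone. The comparisons ask whether the adhesion and migration genes differ with loss of Cdk6, before and after transformation, and with transformation itself.

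Integrins are cell surface receptors made of an alpha and a beta chain that bind extracellular matrix or counter-receptors on other cells. They are switched to high affinity from inside the cell when the small GTPase Rap1, activated by exchange factors such as Rasgrp2, brings talin and kindlin-3 (Fermt3) to the beta chain tail. Selectin ligands mediate rolling on endothelium, and chemokine receptors direct migration and trigger integrin activation. In bone marrow, Cxcr4 and the integrin of Itga4 and Itgb1, which binds Vcam1, are known for retaining progenitors in the niche, while S1P receptors are known for their part in the exit of cells into blood.

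Levels are in CPM, counts scaled to the size of each library. Cdk6 itself stood at 325, 577, 245 and 162 CPM in KO p210 libraries and at 576, 606 and 597 CPM in WT p210 libraries. It stood at 271, 257 and 236 CPM in untransformed KO libraries, against 970, 999, 1212 and 1305 CPM in untransformed WT libraries. Replicate 2 of KO p210 lay within the WT p210 range and so goes against its label; it is called the library labelled KO p210 replicate 2 below. Total counts ranged from 20270348 to 50303271 per library. The summed level of 13 progenitor markers was 2411 to 3139 CPM in KO p210, 2752 to 3298 CPM in WT p210, 2900 to 3320 CPM in untransformed KO and 2985 to 3806 CPM in untransformed WT libraries. Kit averaged 31.3 CPM in KO p210 and 45.5 CPM in WT p210 libraries, against 259 CPM in untransformed KO and 431 CPM in untransformed WT libraries. Ly6a, which encodes Sca-1, averaged 10.9 CPM in KO p210 and 12.7 CPM in WT p210 libraries, against 31.8 CPM in untransformed KO and 51.7 CPM in untransformed WT libraries. Both means, of markers that define the LSK fraction, were thus lower in p210 than in untransformed lines. The T cell marker Cd3e had 0 counts in every library, but the 11 T and NK cell markers together were not absent. They summed to 52.9 to 143.6 CPM in KO p210 and 21.6 to 98.7 CPM in WT p210 libraries. In untransformed libraries they summed to 51.8 to 82.9 CPM in KO and 18.5 to 59.1 CPM in WT. In each group 9 of the 11 averaged under 1 CPM. The summed level of 18 neutrophil and monocyte markers was 23380 to 32430 CPM in untransformed KO libraries, against 398 to 10500 CPM in untransformed WT libraries. Replicate 3 of untransformed WT stood apart at the low end, the other WT libraries having 4357 to 10500 CPM. In bulk RNA, fewer cells of a type and less RNA per cell cannot be told apart.

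Of the 42 genes, 39 passed the filter on low counts and were tested. Cdh2 (N-cadherin) had 3 counts in each of 2 untransformed libraries and none elsewhere. Ccr9, a receptor of gut-homing lymphocytes, had no counts in any untransformed library and at most 7 in a p210 library. Ccr7, the lymph node homing receptor, had at most 25 counts in any library, and all 3 genes stayed under 1 CPM throughout. These 3 genes were not tested. At the other end, 11 genes exceeded 100 CPM in every library, among them Itga4, Itga6, Itgal, Itgb1 and Itgb2 of the integrins and 5 of the 7 signalling genes. Compared per transcript length, in TPM (counts divided by gene length, then scaled to a fixed total per library), Fermt3 (kindlin-3) had the highest mean level in each of the 4 groups. It had 874 ± 54.7 TPM in KO p210 and 879 ± 24.1 TPM in WT p210 libraries (SD). In untransformed libraries it had 737 ± 18 TPM in KO and 1005 ± 226 TPM in WT. The next gene was Itgb2 in KO p210, Rac2 in WT p210 and untransformed KO, and Rap1b in untransformed WT libraries. The ranges of Fermt3 and the next gene overlapped in KO p210 and in untransformed WT libraries and did not overlap in the other groups. Among the receptors, Ccr1 had the highest mean level in KO p210 libraries (282 ± 10.2 TPM), Ccr2 in WT p210 (416 ± 71.4 TPM) and untransformed KO libraries (306 ± 69.5 TPM), and Cxcr4 in untransformed WT libraries (187 ± 24.2 TPM).

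In untransformed lines, loss of Cdk6 went with higher transcript levels of the myeloid integrin Itgam/Itgb2, the selectin ligand Selplg, the inflammatory chemokine receptors Ccr1 and Ccr2, and the signalling proteins Vav1, Rac2 and Rasgrp2. The junction protein F11r was lower. Of the 39 tested genes, 11 were higher in KO lines (28.2%) and 1 was lower (2.56%), by edgeR's quasi-likelihood test at an adjusted p under 0.05. Over all 14512 genes tested, 8.73% were called higher and 6.5% lower. The median log2 fold change was 0.59 over the 39 genes and -0.02 over all genes. Scaling by library size alone moved the median of all genes to -0.12 and gave 10 higher and 1 lower of the 39 genes; of all genes called, 35.6% were then higher, against 57.3% with the main scaling. Every adjusted p below comes from this test, adjusted over all genes tested, unless another tool is named. In each of the 11 higher genes every KO library lay above every WT library, as it did in 98.6% of all genes called higher and in 20.8% of all genes tested. In 9 of the 11 the untransformed WT replicate 3 was the lowest of the WT libraries, which it was in 71% of all genes called higher and in 34.7% of all genes tested. Of the 18 neutrophil and monocyte markers, 17 were tested and 3 were called higher in the same comparison, none lower. Ly6g, a defining neutrophil marker, had no counts in untransformed lines and was the only 1 of the 18 without counts in either genotype there. The part of these markers in the results was not tested.

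**Figure D1:**
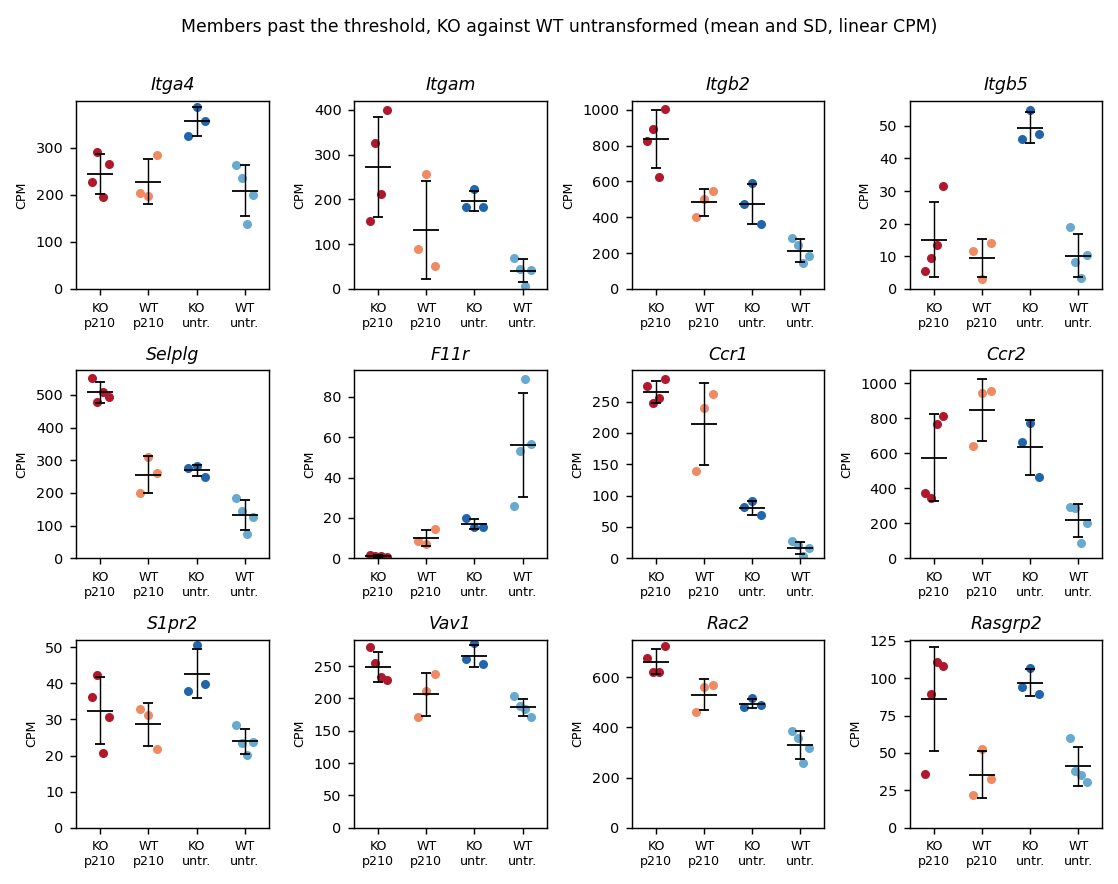
Level in CPM on a linear axis of the 12 genes past the threshold between KO and WT untransformed lines, in every library of the 4 groups; points are libraries, the horizontal mark is the mean and the bar the SD. In untransformed lines (untr.) all KO points lie above all WT points in 11 genes and below them in F11r.

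The 28 genes with an entry in the RefSeq promoter table (GRCm38.p6, 250 bases before to 50 after the start) were searched on both strands for the letters GAGGAA, the core bound by PU.1 and other ETS factors, TGTGGT, the RUNX core, and TTNGCGC, an E2F core. At least 1 GAGGAA stood in the windows of 12 of the 28 genes (42.9%), against 31.3% of all genes in the table and 28.3% of its 32851 windows. TGTGGT stood in 6 of the 28 (21.4%), against 18.9% of all genes and 16.8% of windows, and TTNGCGC in S1pr2 alone (3.6%), against 7.2% of all genes and 6.4% of windows. A match describes letters and not a site. The windows of Itgam and Ccr1 are shown as examples, their KO means being 4.78 and 4.71 times the WT means in untransformed lines. Itgb5 had a larger ratio, 4.85, and its window, not shown, held none of the 3 motifs. The window of F11r is shown because it passed the threshold in all 4 comparisons of genotype or transformation. Capitals mark every match to the 3 motifs, none of which overlap. The Itgam window is on the plus strand at chr7:128062390-128062689 and the Ccr1 window on the minus strand at chr9:123968643-123968942. The F11r window is on the plus strand at chr1:171437311-171437610.
Itgam: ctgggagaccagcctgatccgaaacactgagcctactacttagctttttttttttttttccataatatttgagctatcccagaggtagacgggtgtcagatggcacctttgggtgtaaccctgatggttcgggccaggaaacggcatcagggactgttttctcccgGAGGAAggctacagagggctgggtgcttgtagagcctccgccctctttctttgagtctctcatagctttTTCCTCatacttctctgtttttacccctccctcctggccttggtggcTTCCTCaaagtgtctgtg
Ccr1: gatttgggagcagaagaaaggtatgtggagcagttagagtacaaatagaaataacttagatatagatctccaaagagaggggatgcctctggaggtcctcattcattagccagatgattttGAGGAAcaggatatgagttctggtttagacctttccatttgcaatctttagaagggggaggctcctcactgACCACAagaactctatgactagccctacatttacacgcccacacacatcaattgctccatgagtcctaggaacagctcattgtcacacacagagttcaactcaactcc
F11r: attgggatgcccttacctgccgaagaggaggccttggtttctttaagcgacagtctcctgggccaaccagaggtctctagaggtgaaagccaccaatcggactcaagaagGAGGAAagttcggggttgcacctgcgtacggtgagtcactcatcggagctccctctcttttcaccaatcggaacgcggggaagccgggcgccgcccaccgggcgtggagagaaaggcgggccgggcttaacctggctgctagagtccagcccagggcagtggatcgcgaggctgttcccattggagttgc
The Itgam window holds GAGGAA or its reverse complement at 3 places. The Ccr1 window holds 1 GAGGAA and 1 TGTGGT match, and the F11r window 1 GAGGAA, so the motif stood before genes that were higher and before a gene that was lower in KO lines.

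Among the integrin chains, 4 of 15 were higher (26.7%) in untransformed KO lines and none was lower, against 8.73% and 6.5% of all genes. Itgb2 (chr10:77530252-77565708, GRCm38), the beta 2 chain shared by the leukocyte integrins, had 472, 589 and 362 CPM in KO libraries, against 286, 243, 143 and 182 CPM in WT libraries. The KO libraries were all above the WT libraries, with WT replicate 3 the lowest. This was a log2 fold change of 1.15 ± 0.24 (± SE; adjusted p = 0.0125). Itgam (chr7:128062640-128118491), the alpha chain that pairs with Itgb2 on neutrophils and monocytes, had 184, 223 and 182 CPM in KO libraries, against 69.1, 45, 7.46 and 42.8 CPM in WT libraries. The groups did not overlap, and the WT libraries spread far more widely in proportion, again with replicate 3 lowest. Its KO mean was 4.78 times the WT mean, with a log2 fold change of 2.26 ± 0.65 (adjusted p = 0.0386). Itga4 (chr2:79255426-79333123), which forms the Vcam1 receptor with Itgb1, had 326, 387 and 357 CPM in KO libraries and 263, 235, 138 and 200.4 CPM in WT libraries. All KO values were above the WT values, by a log2 fold change of 0.77 ± 0.21 (adjusted p = 0.0303). Itgb5, a vitronectin receptor chain, ranged over 46 to 55 CPM in KO libraries and 3.21 to 19 CPM in WT libraries, a log2 fold change of 2.28 ± 0.66 (adjusted p = 0.0397). Itgb1, the partner of Itga4 and of most matrix-binding alpha chains, had 551, 596 and 617 CPM in KO libraries and 584, 611, 764 and 652 CPM in WT libraries. Here the groups overlapped, and the log2 fold change was -0.15 ± 0.14 (adjusted p = 0.477). Itgal, the alpha chain of the lymphocyte-type Itgb2 integrin, missed the threshold at 0.67 ± 0.28 (adjusted p = 0.127) although its groups did not overlap. The same held for Itga1, a collagen receptor chain with 9.9 to 23.6 CPM in KO and 0 to 4.53 CPM in WT libraries (adjusted p = 0.126), and for Itgax and Itgb7.

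Of the 8 adhesion molecules tested, Selplg was higher and F11r lower in untransformed KO lines. Selplg (chr5:113818536-113832644), the P-selectin glycoprotein ligand on which leukocytes roll, had 276, 282 and 249 CPM in KO libraries, against 185, 145, 73 and 127 CPM in WT libraries. The KO libraries lay close together and above all WT libraries. Its log2 fold change was 1.02 ± 0.24 (adjusted p = 0.0184). F11r (chr1:171437535-171464603), which encodes the junctional adhesion molecule A, had 19.9, 15.3 and 15.6 CPM in KO libraries, against 25.7, 53.2, 88.6 and 56.4 CPM in WT libraries. No KO value reached the WT range, in which replicate 3 was the highest, and the log2 fold change was -1.73 ± 0.38 (adjusted p = 0.0144). Vcam1, the counter-receptor of the Itga4 integrins, was low throughout, with 2.54, 4.23 and 2.93 CPM in KO libraries and 0.853, 0.509, 0 and 0.15 CPM in WT libraries. Each KO value was above every WT value, yet the log2 fold change of 3.13 ± 1.04 missed the threshold (adjusted p = 0.0614). Jam3, a junction molecule related to F11r, showed a log2 fold change of -3.40 ± 1.41 at levels of 0 to 0.273 CPM in KO and 0.321 to 3.05 CPM in WT libraries (adjusted p = 0.118).

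Among the 9 receptors tested, 3 were higher (33.3%) in untransformed KO lines and none was lower, against 8.73% and 6.5% of all genes. Ccr1 (chr9:123962124-123968692), a receptor for inflammatory chemokines on myeloid cells, had 81.7, 91.6 and 69.1 CPM in KO libraries, against 26.9, 20.7, 4.17 and 16.8 CPM in WT libraries. Its KO libraries were well above the WT libraries, of which replicate 3 had the lowest value by far. The KO mean was 4.71 times the WT mean, with a log2 fold change of 2.24 ± 0.44 (adjusted p = 0.01), the smallest adjusted p of the 12 genes. Ccr2 (chr9:124101950-124113557), the monocyte receptor for Ccl2, had 661, 772 and 464 CPM in KO libraries, against 291, 287, 88.1 and 200.3 CPM in WT libraries. The groups did not overlap, and the log2 fold change was 1.55 ± 0.41 (adjusted p = 0.0292). S1pr2, an S1P receptor known for restraining migration, had 37.8, 50.5 and 39.7 CPM in KO libraries and 28.3, 23.5, 20.03 and 23.7 CPM in WT libraries. Its difference was smaller, a log2 fold change of 0.84 ± 0.22 without overlap (adjusted p = 0.0295). Cxcr4, the receptor for Cxcl12, had 132, 142 and 123 CPM in KO libraries and 104, 78.1, 83 and 99.7 CPM in WT libraries. The KO libraries were the higher ones without overlap, but the log2 fold change of 0.54 ± 0.32 missed the threshold (adjusted p = 0.263). S1pr1, the receptor for exit along the S1P gradient, had a log2 fold change of -0.44 ± 0.32 (adjusted p = 0.374).

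Of the 7 signalling genes, 3 were higher (42.9%) in untransformed KO lines and none was lower, against 8.73% and 6.5% of all genes. Rac2, a blood cell GTPase that drives actin assembly in migration, had 481, 516 and 488 CPM in KO libraries and 387, 356, 259 and 318 CPM in WT libraries. Vav1, an exchange factor for Rac proteins, had 260.2, 285 and 253 CPM in KO libraries and 203, 188, 183 and 172 CPM in WT libraries. Both genes were separated without overlap and by similar amounts, with log2 fold changes of 0.59 ± 0.12 for Rac2 (adjusted p = 0.0127) and 0.51 ± 0.11 for Vav1 (adjusted p = 0.0123). Rasgrp2, the Rap1 exchange factor that precedes integrin activation, had 94.2, 107 and 89.5 CPM in KO libraries, against 60.3, 37.6, 35.4 and 30.6 CPM in WT libraries. Its KO libraries were all higher, by a log2 fold change of 1.24 ± 0.37 (adjusted p = 0.0448). The integrin activators Fermt3 and Tln1, and Rap1b itself, passed in neither direction, with log2 fold changes of -0.27 ± 0.14, -0.25 ± 0.14 and -0.61 ± 0.27. In each of these 3 genes the WT replicate 3 was the highest library of its group.

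Related genes outside the 42 were counted in lists of the same roles. Over all genes, 8.73% were higher and 6.5% lower in untransformed KO lines. Of 46 tested genes of integrin activation and migration signalling, 9 were higher and 3 lower in untransformed KO lines, with a median log2 fold change of 0.12. The higher ones included Rassf5, a Rap1 effector (0.52 ± 0.08, adjusted p = 0.00573), the Src family kinase Lyn (0.62 ± 0.10, adjusted p = 0.00656) and Rasgrp4 (2.21 ± 0.41, adjusted p = 0.00867). Of 14 other chemoattractant receptors tested, 2 were higher and none lower, namely the platelet-activating factor receptor Ptafr (2.18 ± 0.46, adjusted p = 0.0129) and the leukotriene receptor Ltb4r1 (2.45 ± 0.70, adjusted p = 0.0385). Of 9 other integrin chains tested, none was higher and 1 was lower, the platelet chain Itga2b, at 682 ± 167 CPM in KO and 2178 ± 873 CPM in WT libraries (-1.68 ± 0.33, adjusted p = 0.011). Of the 8 megakaryocyte and platelet markers, 4 were lower in the same comparison, and their part in it was not tested. Of 15 selectins and enzymes of selectin ligand synthesis 2 were higher and 1 lower, and of 18 other adhesion molecules 1 was higher and 2 lower.

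The 12 calls were sensitive to the libraries used. Their number fell to 0 without KO replicate 2, to 5 without KO replicate 1 or without WT replicate 4, to 6 without WT replicate 3 and to 7 without KO replicate 3, all of them untransformed. Calls over all genes fell as well, from 2211 with all libraries to 181 without KO replicate 2. They numbered 691 without KO replicate 1, 928 without WT replicate 4, 1195 without WT replicate 3 and 1604 without KO replicate 3. Itgb2, Ccr1, Rac2, Vav1 and F11r were lost only without KO replicate 2 when libraries were left out in turn, and the other 7 genes were lost in 3 (Selplg) to 8 (Rasgrp2) of the 14 such fits. The descriptions carry 2 codes whose meaning is not stated. Within the first, with 2 libraries a group, 3 genes passed (Ccr1, Ccr2 and Itgb2). The second holds 1 untransformed KO library, and WT p210 replicate 3 is the only WT p210 library in it. A group of 1 library has no spread of its own, so no count is given for any comparison within the second code. With a term for a second sequencing run, which the descriptions name for 6 libraries, 6 genes passed, and without the pair of doubtful libraries, the one labelled KO p210 replicate 2 and untransformed WT replicate 3, 7 passed.

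After transformation, the differences between KO and WT lines past the threshold were the higher Selplg and the lower F11r. Cdk6 itself did not pass in this comparison by the same edgeR test, with a log2 fold change of -0.86 ± 0.31 (adjusted p = 0.147). In untransformed lines it passed, at -2.14 ± 0.34 (adjusted p = 0.00573). Of the 39 genes, 1 was higher (2.56%) and 1 lower (2.56%), where 0.882% of all genes were called higher and 3.56% lower. The median log2 fold change was 0.13 over the 39 genes and -0.00 over all genes. With library size scaling 8.72% of all genes called were higher, against 19.8% with the main scaling, and the same number of the 39 genes passed. Selplg had 551, 477, 509 and 495 CPM in KO p210 libraries, against 199, 309.6 and 260.2 CPM in WT p210 libraries. All KO libraries were above all WT libraries, the library labelled KO p210 replicate 2 being the lowest of the KO values, and the log2 fold change was 0.99 ± 0.25 (adjusted p = 0.043). This call was lost in 11 of the 14 fits that left out 1 library, among them the one without the library labelled KO p210 replicate 2 (adjusted p = 0.0831). F11r had 1.62, 0.926, 1.34 and 0.858 CPM in KO p210 libraries, against 8.44, 7.15 and 14.5 CPM in WT p210 libraries. Each KO value, including that of the library labelled KO p210 replicate 2, was far below the WT values. The log2 fold change was -3.08 ± 0.40 (adjusted p = 0.00235), and the call held in each of the 14 fits without 1 library. It was lost with limma-voom (adjusted p = 0.0756) and in a fit of the compared groups only (adjusted p = 0.057). In the second code WT p210 replicate 3 is the only WT p210 library, so the call is not judged there.

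Several members whose KO and WT values did not overlap in p210 lines missed the threshold. The share of all genes that separate in this way was found only for KO above WT in untransformed lines. The separations in p210 lines are therefore description only. Itgb2 had 824, 895, 624 and 1005 CPM in KO p210 libraries and 399, 503 and 545 CPM in WT p210 libraries, a log2 fold change of 0.79 ± 0.25 (adjusted p = 0.096). Cxcr2, the neutrophil receptor for Cxcl1 and Cxcl2, ranged over 26.7 to 76.2 CPM in KO p210 libraries and 2.85 to 25.7 CPM in WT p210 libraries (2.01 ± 0.81, adjusted p = 0.191). Rac2 was also above the WT range in every KO p210 library (0.32 ± 0.13, adjusted p = 0.18). The genes of progenitor retention showed overlapping groups. Cxcr4 had 95.3, 128, 127 and 218 CPM in KO p210 libraries and 94.7, 211 and 82.1 CPM in WT p210 libraries (0.13 ± 0.32, adjusted p = 0.867). Itga4 had 228, 291, 195 and 266 CPM in KO p210 libraries and 204, 197 and 284 CPM in WT p210 libraries (0.10 ± 0.21, adjusted p = 0.844). In both genes the highest WT library exceeded 3 of the 4 KO libraries. Itgb1 had 529.5, 548, 373 and 465 CPM in KO p210 libraries and 623, 494 and 529.7 CPM in WT p210 libraries (-0.20 ± 0.14, adjusted p = 0.462). Vcam1 was at or near 0 in both groups, at 0 to 0.156 CPM in KO p210 and 0 to 0.168 CPM in WT p210 libraries. The neutrophil and monocyte markers summed to 7559 to 23690 CPM in KO p210 libraries, against 2560 to 7106 CPM in WT p210 libraries, and none of the 17 tested was called in this comparison; their part in the values above was not tested. The count of 2 became 1 without untransformed WT replicate 2 or 4, without any 1 of the 3 untransformed KO libraries and without KO p210 replicate 4 or the library labelled replicate 2. With replicate number as a block it was also 1, F11r, and without the pair of doubtful libraries, the one labelled KO p210 replicate 2 and untransformed WT replicate 3 it was again 2.

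Among the related genes, 2 of 14 other chemoattractant receptors were lower in KO p210 than in WT p210 lines, the chemokine-binding Ackr1 (0.132 ± 0.126 CPM in KO p210, 16.5 ± 17.3 CPM in WT p210, -7.10 ± 1.20, adjusted p = 0.008) and Cxcr5 (-3.30 ± 0.79, adjusted p = 0.036). Of 46 signalling genes, the adaptor Pxn, known as paxillin, was higher (0.48 ± 0.10, adjusted p = 0.0212), as was Rassf5 (0.33 ± 0.08, adjusted p = 0.0479), and the talin paralogue Tln2 was lower (-3.77 ± 0.82, adjusted p = 0.0237). Podxl, a sialomucin of progenitors and endothelium, was the 1 of 18 other adhesion molecules that was lower, at 3.9 ± 6.52 CPM in KO p210 and 130.4 ± 63.3 CPM in WT p210 libraries (-5.11 ± 1.16, adjusted p = 0.0304). Of 9 other integrin chains, none was higher and 2 were lower, and of 15 selectins and enzymes of selectin ligand synthesis none passed. Over all genes, 0.882% were higher and 3.56% lower in this comparison.

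**Figure D2:**
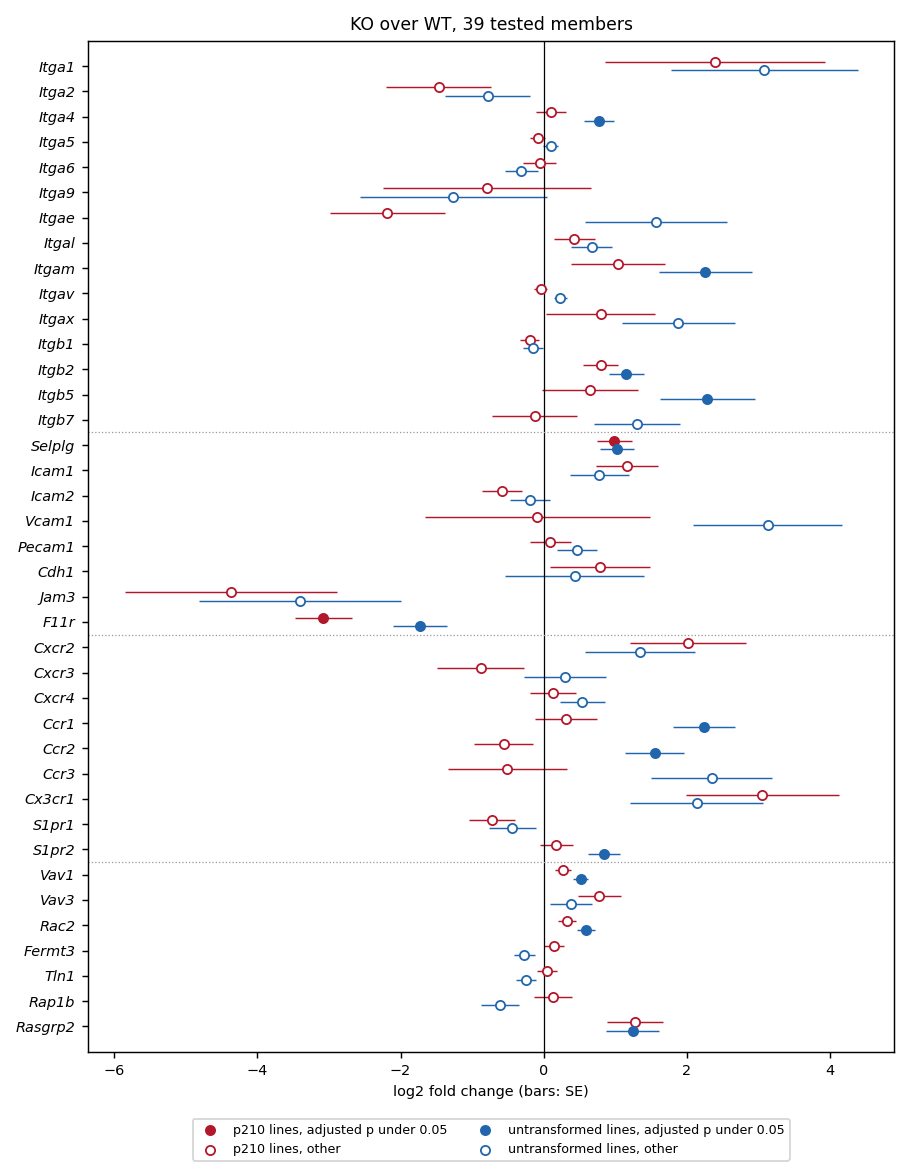
Log2 fold change of KO over WT with its SE for the 39 tested genes, ordered by role from integrin chains at the top to signalling genes at the bottom, in p210 lines (red) and untransformed lines (blue); filled points passed an adjusted p of 0.05. There are 12 filled points for untransformed lines and 2, Selplg and F11r, for p210 lines.

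The test of whether the KO effect differed between p210 and untransformed lines called none of the 39 genes, where 0% of all genes were called higher and 0.0345% lower. By edgeR, 6 of the 39 had an unadjusted p under 0.05 in this test, and DESeq2 called 2, both lower. The 2 genes were Ccr2, at -2.11 ± 0.58 with edgeR (adjusted p = 0.206) and an adjusted p of 0.0159 with DESeq2, and Ccr1, at -1.93 ± 0.60 with edgeR (adjusted p = 0.244) and an adjusted p of 0.0452 with DESeq2. For Ccr2 the KO over WT log2 fold change was -0.56 ± 0.41 in p210 lines (adjusted p = 0.493) and 1.55 ± 0.41 in untransformed lines. The smaller number of calls in p210 lines is therefore not shown to be a difference between the states for any of the 39 genes by the edgeR test.

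The largest fold changes among the 39 tested genes were seen with p210. E-cadherin (Cdh1) was present at high levels in p210 lines of both genotypes and at low levels in untransformed lines, where each library had 13 to 43 counts, and the integrin chains Itgb7, Itgax, Itgav and Itga5 were higher, while Itga2 and F11r were lower. In KO lines 10 of the 39 genes were higher (25.6%) and 6 lower (15.4%), where 19.2% of all genes were called higher and 18% lower. In WT lines 13 were higher (33.3%) and 4 lower (10.3%), where 21.9% of all genes were called higher and 17.6% lower. The median log2 fold change in KO lines was 0.00 over the 39 genes and -0.01 over all genes, and in WT lines it was 0.15 over the 39 genes and 0.02 over all genes. With library size scaling 9 were higher and 10 lower in KO lines and 12 higher and 4 lower in WT lines. Of all genes called in KO lines, 37.7% were then higher, against 51.7% with the main scaling, and in WT lines 42%, against 55.4%. Under that scaling the median over all genes in KO lines was -0.12. These comparisons share their libraries with those between KO and WT lines. Because 6 lines were sequenced in both states, the line was also fitted as a block, and then 9 genes passed in KO lines and 13 in WT lines. In that fit untransformed WT replicate 4 and KO p210 replicate 3 do not inform the difference, since their lines appear in 1 state.

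Cdh1 (chr8:106603351-106670246), the adhesion receptor of epithelial junctions and the counter-receptor of the Itgae/Itgb7 integrin, had 295, 237, 539 and 576 CPM in KO p210 libraries, against 1.54, 1.14 and 0.412 CPM in untransformed KO libraries. In WT lines it had 44.6, 548 and 127 CPM with p210, against 0.628, 0.245, 1.18 and 0.828 CPM in untransformed libraries. Every p210 library was above every untransformed library, and the p210 libraries differed widely among themselves, WT p210 replicate 1 being the lowest. The log2 fold changes were 8.75 ± 1.06 in KO lines (adjusted p = 0.000133) and 8.40 ± 0.93 in WT lines (adjusted p = 6.74e-05), and both calls held under every alternative fit run, including the line block. F11r had the opposite direction. In KO lines it had 1.62, 0.926, 1.34 and 0.858 CPM with p210, against 19.9, 15.3 and 15.6 CPM in untransformed libraries, a log2 fold change of -3.84 ± 0.40 (adjusted p = 5.77e-05). In WT lines it had 8.44, 7.15 and 14.5 CPM with p210, against 25.7, 53.2, 88.6 and 56.4 CPM in untransformed libraries, a log2 fold change of -2.49 ± 0.39 (adjusted p = 0.000544). F11r was thus lowest in KO p210 and highest in untransformed WT libraries, and no neighbouring groups in that order overlapped.

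**Figure D3:**
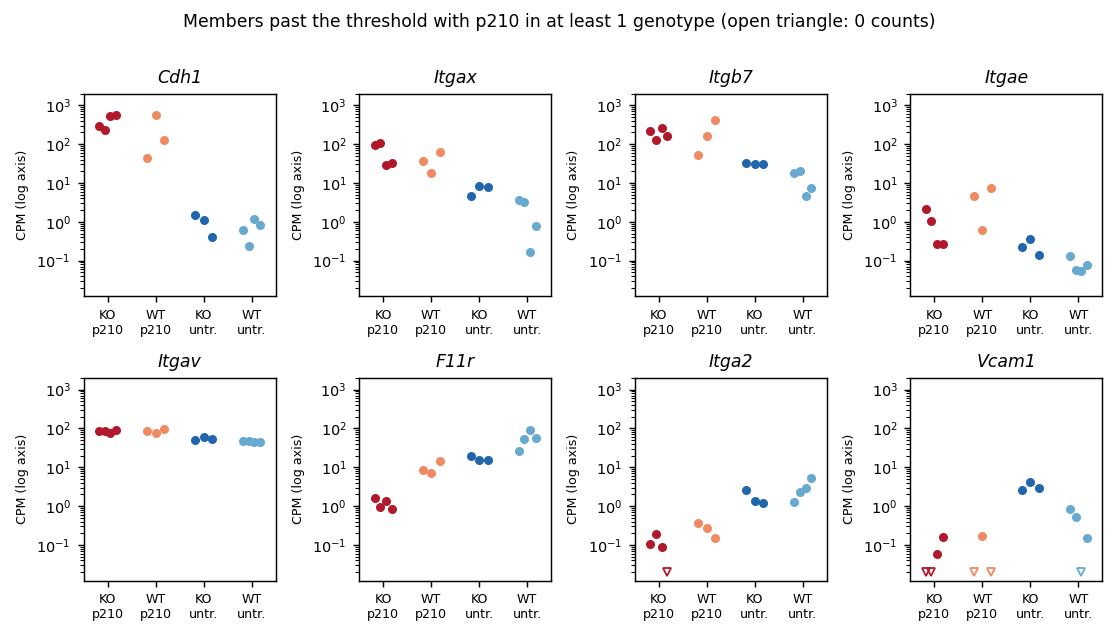
Level in CPM on a log axis of 8 genes past the threshold with p210 in at least 1 genotype, in every library; points are libraries and open triangles libraries with 0 counts, drawn at a fixed height. In Cdh1 the 7 p210 points lie between 44.6 and 576 CPM and the 7 untransformed points between 0.245 and 1.54 CPM, while F11r and Itga2 are lower in the p210 lines of both genotypes.

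Pecam1, an adhesion molecule of leukocytes and endothelium, had 763, 707, 569 and 594 CPM in KO p210 libraries, against 386, 350.1 and 312 CPM in untransformed KO libraries (0.91 ± 0.29, adjusted p = 0.0264). Pecam1 in WT lines had 543, 754 and 553 CPM with p210, against 214, 389, 131 and 276 CPM in untransformed libraries (1.29 ± 0.28, adjusted p = 0.00373). All p210 libraries exceeded the untransformed libraries of their genotype. The Pecam1 call in KO lines was lost in 5 of the 14 fits without 1 library, among them those without any 1 of the 3 untransformed KO libraries and in 8 of all 27 alternative fits; leaving out the library labelled KO p210 replicate 2 also lost it. Selplg was higher with p210 in both genotypes, by 0.92 ± 0.24 in KO lines (adjusted p = 0.0121) and 0.95 ± 0.24 in WT lines (adjusted p = 0.00825), and with the line as a block neither call was kept (adjusted p = 0.0758 in KO and 0.0618 in WT lines). Vcam1 had 0, 0, 0.0582 and 0.156 CPM in KO p210 libraries, against 2.54, 4.23 and 2.93 CPM in untransformed KO libraries. The p210 values were all far below the untransformed ones, a log2 fold change of -5.75 ± 1.26 (adjusted p = 0.0043). In WT lines Vcam1 had 0, 0.168 and 0 CPM with p210 and 0.853, 0.509, 0 and 0.15 CPM in untransformed libraries, and these overlapped (-2.53 ± 1.35, adjusted p = 0.155). Icam2, a ligand of the Itgb2 integrins, was lower in KO p210 lines, at 35 to 68 CPM against 102 to 112 CPM in untransformed KO lines (adjusted p = 0.0138), its mean being 0.5 times the untransformed mean.

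Of the 15 integrin chains, 5 were higher (33.3%) and 2 lower (13.3%) with p210 in KO lines, against 19.2% and 18% of all genes. In WT lines 6 were higher (40%) and 1 lower (6.67%), against 21.9% and 17.6% of all genes. Itgav (chr2:83724397-83806916), the alpha chain of the vitronectin receptors, had 83.7, 85.6, 74.9 and 93.2 CPM in KO p210 libraries, against 49.7, 59.2 and 52.9 CPM in untransformed KO libraries (0.65 ± 0.10, adjusted p = 0.000403). WT lines had 85, 77.4 and 98 CPM with p210, against 46.1, 47.6, 44.1 and 46 CPM in untransformed libraries (0.92 ± 0.09, adjusted p = 3.61e-05). The libraries of each group lay close together without overlap between the states, and the adjusted p in WT lines was the smallest of the 39 genes. Itga5, the alpha chain of the fibronectin receptor, had 193, 166, 142 and 162 CPM in KO p210 libraries, against 111, 119 and 108 CPM in untransformed KO libraries (0.56 ± 0.11, adjusted p = 0.00188). In WT lines Itga5 had 180.1, 189.9 and 156 CPM with p210, against 116, 102, 95.5 and 107 CPM in untransformed libraries (0.74 ± 0.10, adjusted p = 0.000254). No p210 library overlapped the untransformed libraries of its genotype.

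Itgb7 (chr15:102215995-102231935), the beta chain that pairs with Itga4 or Itgae in gut homing, had 212, 129.8, 259 and 167 CPM in KO p210 libraries, against 33.1, 30.6 and 31.1 CPM in untransformed KO libraries (2.60 ± 0.66, adjusted p = 0.00937). WT lines had 53.5, 165 and 412 CPM with p210, against 18.4, 20.9, 4.75 and 7.27 CPM in untransformed libraries (4.03 ± 0.65, adjusted p = 0.000582). Each p210 library was above the untransformed libraries of both genotypes. In KO lines this call was lost with the line as a block (adjusted p = 0.088). Its partner Itgae was higher in WT p210 libraries, at 0.605 to 7.31 CPM, against 0.0549 to 0.135 CPM in untransformed libraries (5.70 ± 0.96, adjusted p = 0.000794), a low level beside that of Itgb7. Itgae ranged over 0.262 to 2.09 CPM in KO p210 libraries and 0.138 to 0.353 CPM in untransformed KO libraries, and these overlapped. Itgax, a beta 2 partner of dendritic cells and macrophages, reached 29.8 to 110.1 CPM in KO p210 libraries, against 4.68 to 8.5 CPM in untransformed KO libraries (3.24 ± 0.86, adjusted p = 0.0116). In WT lines it ranged over 17.6 to 62.2 CPM with p210, against 0.165 to 3.59 CPM in untransformed libraries (4.33 ± 0.83, adjusted p = 0.00183). Both Itgax calls were lost with the line as a block (adjusted p = 0.0738 in KO and 0.0528 in WT lines).

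Itgb2 was higher with p210 by 0.82 ± 0.25 in KO lines (adjusted p = 0.0228, 0.067 with the line as a block, and lost in 3 of the 14 fits without 1 library) and by 1.18 ± 0.24 in WT lines (adjusted p = 0.00274), from the library values given above. Itga2, a collagen receptor chain, had 0.104, 0.193, 0.0873 and 0 CPM in KO p210 libraries, against 2.59, 1.37 and 1.2 CPM in untransformed KO libraries (-4.11 ± 0.69, adjusted p = 0.000934). In WT lines it had 0.376, 0.269 and 0.152 CPM with p210, against 1.3, 2.3, 2.99 and 5.17 CPM in untransformed libraries (-3.42 ± 0.69, adjusted p = 0.00225). The 7 p210 libraries were all below the 7 untransformed ones. Itga1 was lower in KO p210 lines, at 0.0522 to 2.86 CPM against 9.9 to 23.6 CPM in untransformed KO lines (-3.89 ± 1.35, adjusted p = 0.0405), a call that was lost with the line as a block and in 7 of the 14 fits without 1 library. Itga4 and Itgb1 passed in neither genotype, with log2 fold changes of -0.54 ± 0.21 and -0.30 ± 0.14 in KO lines and 0.13 ± 0.21 and -0.25 ± 0.14 in WT lines.

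Of the 9 receptors tested, 1 was higher (11.1%) and 1 lower (11.1%) with p210 in KO lines, against 19.2% and 18% of all genes. In WT lines 3 were higher (33.3%) and none lower, against 21.9% and 17.6% of all genes. Ccr1 had 274, 247, 256 and 286 CPM in KO p210 libraries, against 81.7, 91.6 and 69.1 CPM in untransformed KO libraries (1.72 ± 0.45, adjusted p = 0.0111, 0.0905 with the line as a block). Ccr1 in WT lines had 139, 240.1 and 263 CPM with p210, against 26.9, 20.7, 4.17 and 16.8 CPM in untransformed libraries (3.65 ± 0.45, adjusted p = 0.000131). The p210 libraries of both genotypes were above all untransformed libraries. Ccr2 had 639.6, 943 and 957 CPM in WT p210 libraries, against 291, 287, 88.1 and 200.3 CPM in untransformed WT libraries, without overlap (1.97 ± 0.41, adjusted p = 0.00316). In KO lines Ccr2 had 375, 343, 768 and 811 CPM with p210 and 661, 772 and 464 CPM in untransformed libraries, and here the groups overlapped (-0.14 ± 0.41, adjusted p = 0.817). S1pr1 had 41.4, 112 and 111 CPM in WT p210 libraries and 44.8, 56, 48.4 and 43.6 CPM in untransformed WT libraries. Replicate 1 of WT p210 lay below every untransformed WT library and the other 2 far above them. The call (0.87 ± 0.32, adjusted p = 0.0466) was lost in 11 of the 14 fits without 1 library and with the line as a block. Cxcr3, a receptor of activated lymphocytes, had 0.209, 0.154, 0.524 and 1.09 CPM in KO p210 libraries and 1.32, 1.45 and 1.91 CPM in untransformed KO libraries (-1.64 ± 0.60, adjusted p = 0.048). Its values were low, did not overlap, and the call was lost with the line as a block and in 11 of the 14 fits without 1 library. Cxcr4 passed in neither genotype, at 0.10 ± 0.32 in KO lines (adjusted p = 0.835) and 0.51 ± 0.32 in WT lines (adjusted p = 0.228).

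Among the 7 signalling genes, Rac2 was higher with p210 in both genotypes, and Vav3 and Rap1b were lower in WT lines. Rac2 had 676, 622, 623 and 726 CPM in KO p210 libraries, against 481, 516 and 488 CPM in untransformed KO libraries (0.42 ± 0.13, adjusted p = 0.0215, 0.108 with the line as a block, and lost in 2 of the 14 fits without 1 library). Rac2 in WT lines had 459.7, 559.8 and 571 CPM with p210, against 387, 356, 259 and 318 CPM in untransformed libraries (0.68 ± 0.12, adjusted p = 0.00122). Neither pair of groups overlapped. Vav3, a paralogue of Vav1, had 37, 43.6 and 25.9 CPM in WT p210 libraries, against 106, 98.3, 45.3 and 59.2 CPM in untransformed WT libraries without overlap (-1.12 ± 0.30, adjusted p = 0.0126). In KO lines it had a log2 fold change of -0.73 ± 0.29 (adjusted p = 0.0703), which passed with the line as a block (adjusted p = 0.0266). Rap1b, a Rap1 isoform, had 302, 349 and 327 CPM in WT p210 libraries, against 406, 401, 1042 and 609.7 CPM in untransformed WT libraries (-0.91 ± 0.27, adjusted p = 0.0189). All p210 values were below the untransformed ones, of which replicate 3 was the highest by far, and the call was lost with the line as a block (adjusted p = 0.0983). Fermt3 and Tln1 passed in neither genotype.

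**Figure D4:**
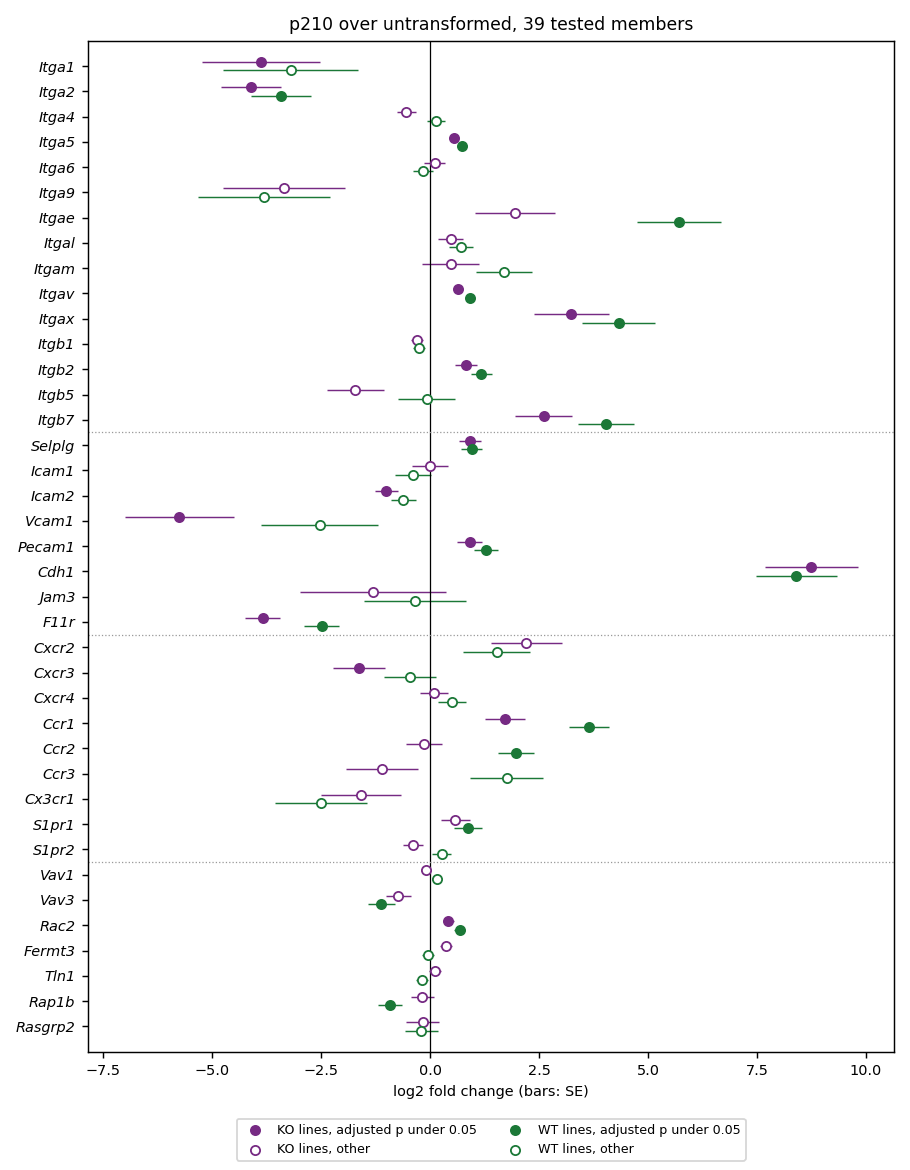
Log2 fold change of p210 over untransformed with its SE for the 39 tested genes, ordered by role from integrin chains at the top to signalling genes at the bottom, in KO lines (purple) and WT lines (green); filled points passed an adjusted p of 0.05. There are 16 filled points for KO lines and 17 for WT lines, with Cdh1 farthest to the right in both.

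Counts in KO lines moved with the libraries used. The 16 genes became 10 without untransformed KO replicate 1, where Itgax, Itgb2, Pecam1, Itga1, Rac2 and Cxcr3 were lost. In WT lines the count stayed between 16 and 19 when single libraries were left out. Without the pair of doubtful libraries, the one labelled KO p210 replicate 2 and untransformed WT replicate 3, 18 genes passed in KO lines and 18 in WT lines. Within the first code 19 genes passed in KO lines and 15 in WT lines. No counts are given for the second code, where both comparisons include a group of 1 library. Mast cell and basophil markers summed to 7356 to 11030 CPM in KO p210 and 4319 to 14130 CPM in WT p210 libraries, against 2818 to 3108 CPM in untransformed KO and 1328 to 7259 CPM in untransformed WT libraries. Of the 9 of these markers that were tested, 3 were higher and none lower with p210 in KO lines, and 3 were higher and 3 lower in WT lines. Of the 17 neutrophil and monocyte markers tested, none was higher and 4 were lower with p210 in KO lines, and 1 was higher and 2 were lower in WT lines. Over all genes, 19.2% were higher and 18% lower in KO lines, and 21.9% were higher and 17.6% lower in WT lines. The part of both marker lists in the changes with p210 was not tested.

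**Figure D5:**
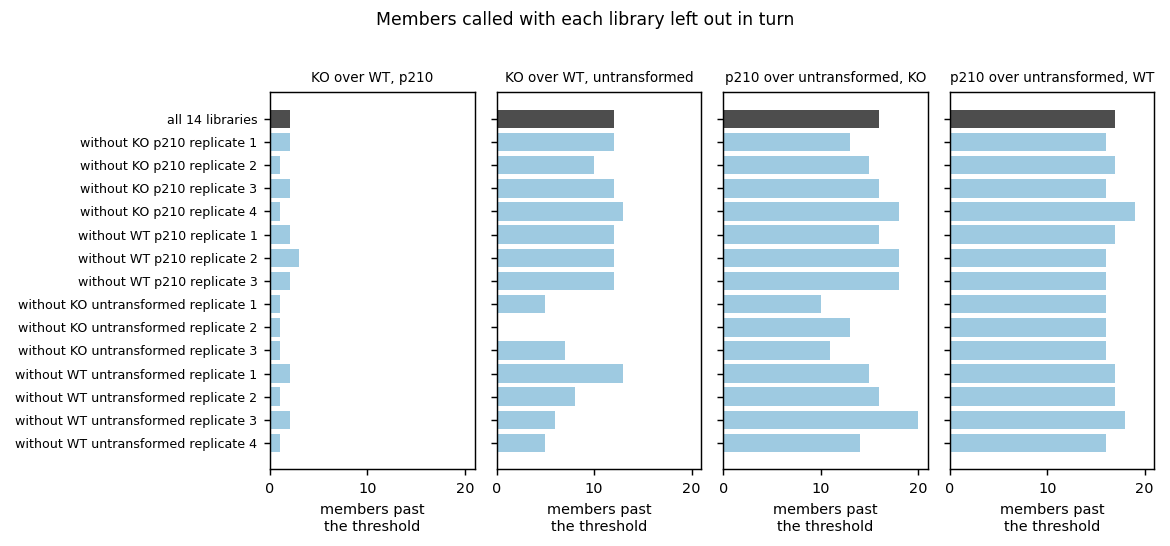
Number of the 39 genes past the threshold in each comparison with all 14 libraries (dark bar) and with each library left out in turn (light bars). For KO over WT in untransformed lines the bar is 12 with all libraries and 0 without untransformed KO replicate 2, while for p210 over untransformed in WT lines the bars stay between 16 and 19.

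Of 15 selectins and enzymes of selectin ligand synthesis, 3 were higher and 2 lower with p210 in KO lines, where 19.2% of all genes were higher and 18% lower. In WT lines 4 were higher and 3 lower, where 21.9% of all genes were higher and 17.6% lower. The list as a whole was thus near the shares of all genes. Gcnt1, a branching enzyme for the glycans of Selplg, had 335 ± 76.1 CPM in KO p210 and 352 ± 96.6 CPM in WT p210 libraries, against 85.9 ± 4.73 CPM in untransformed KO and 90.2 ± 5.51 CPM in untransformed WT libraries (SD). Its log2 fold changes were 1.96 ± 0.20 in KO lines (adjusted p = 5.15e-05) and 1.97 ± 0.19 in WT lines (adjusted p = 2.97e-05). Selp, which encodes P-selectin, the partner of Selplg on platelets and endothelium, had 0.802 ± 0.469 CPM in KO p210 and 1.59 ± 1.25 CPM in WT p210 libraries, against 121 ± 44.2 CPM in untransformed KO and 227 ± 101 CPM in untransformed WT libraries. Its log2 fold changes with p210 were -7.15 ± 0.68 in KO lines (adjusted p = 3.42e-05) and -7.09 ± 0.74 in WT lines (adjusted p = 4.63e-05). Of the 8 megakaryocyte and platelet markers, 3 were lower in KO lines and 4 in WT lines, and none was higher. Of 14 other chemoattractant receptors, 2 were higher and 1 lower in KO lines and 6 were higher and none lower in WT lines, S1pr4 being higher in both (1.34 ± 0.24 in KO lines, adjusted p = 0.00132, and 1.70 ± 0.23 in WT lines, adjusted p = 0.000214). Of 46 signalling genes, 7 were higher and 3 lower in KO lines and 13 were higher and 1 lower in WT lines, among them Sharpin, an inhibitor of integrin activation (0.64 ± 0.06 in KO lines, adjusted p = 4.03e-05, and 0.83 ± 0.06 in WT lines, adjusted p = 5.86e-06). Of 9 other integrin chains 1 was higher and 2 lower in KO lines and 2 were higher and 2 lower in WT lines. Of 18 other adhesion molecules 3 were higher and 4 lower in KO lines and 6 were higher and 3 lower in WT lines.

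Of the 39 genes, 12 passed in no comparison, among them Cxcr4 and Itgb1. Itga6, a laminin receptor chain, was among the most abundant members and had log2 fold changes between -0.32 ± 0.23 for KO over WT in untransformed lines and 0.10 ± 0.23 for p210 over untransformed in KO lines. Itgal had log2 fold changes of 0.47 ± 0.29 with p210 in KO lines and 0.71 ± 0.28 in WT lines (adjusted p = 0.0652). Itga9, a chain that pairs with Itgb1, fell short at -3.35 ± 1.39 in KO lines (adjusted p = 0.0781) and -3.82 ± 1.51 in WT lines (adjusted p = 0.0636), with values of 0 to 0.896 CPM in KO p210 and 0 to 1.42 CPM in WT p210 libraries, against 1.32 to 4.04 CPM in untransformed KO and 1.88 to 14.3 CPM in untransformed WT libraries. Cx3cr1, the fractalkine receptor of monocytes, had 0.679 to 6.24 CPM in KO p210 and 0.168 to 0.722 CPM in WT p210 libraries (3.05 ± 1.07, adjusted p = 0.132), and 4.56 to 15.4 CPM in untransformed KO and 0.137 to 4.89 CPM in untransformed WT libraries (2.13 ± 0.93, adjusted p = 0.135). Ccr3, the eotaxin receptor of eosinophils and mast cells, ranged over 0.232 to 4.83 CPM in KO p210 and 1.44 to 3.59 CPM in WT p210 libraries, and over 1.04 to 5.49 CPM in untransformed KO and 0.329 to 1.04 CPM in untransformed WT libraries. Icam1, the main ligand of the Itgb2 integrins, was highest in KO p210 replicate 1, at 89.2 CPM, followed by the library labelled KO p210 replicate 2 at 72.4 CPM, while the other KO p210 libraries had 20.4 and 35.4 CPM and the WT p210 libraries 21.5 to 27.6 CPM (1.16 ± 0.43, adjusted p = 0.152). Cxcr2, Jam3, Fermt3 and Tln1 complete the 12.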

How the data were processed

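RNA was taken from cultured mouse cells with an RNeasy kit, made into libraries with a stranded SENSE mRNA-Seq kit and sequenced as single-end reads, per the labels' protocols. Trimmomatic, STAR and GRCm38 are named in the submitters' processing notes, with versions not given in the sources used here. Counts per gene were deposited by the authors, made with featureCounts 1.5.1 in its reverse-stranded setting on GENCODE M13, per the file headers. TPM values were deposited by the authors beside the counts; recomputed from counts and lengths they differed by at most 0.049. Symbols were found for 50376 of 50686 genes. The 42 members and the lists of related and marker genes were chosen with earlier results of these data known.

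Counts of the 14 libraries were fitted together by group with edgeR 4.0.16 in R 4.3.3 (TMM scaling, filterByExpr with a minimum count of 10 and total of 15, robust quasi-likelihood F-test), leaving 10 residual degrees of freedom, and p-values were adjusted by Benjamini-Hochberg over 14512 genes. CPM are on TMM-scaled library sizes, and a ± after a log2 fold change is its SE. Members with the 3 smallest adjusted p per class and comparison, and Cxcr4, Itga4, Itgb1, Itgb2, Selplg and Vcam1, are given in every library, and of each related list up to 3 called genes per comparison. The fitting procedure was run on simulated counts in which genes differed only in untransformed KO libraries. These counts held no line pairs and no library set apart, so the run does not bear on how the calls depend on libraries or lines. Alternatives included limma-voom (limma 3.58.1) and DESeq2 1.42.0. The descriptions tie p210 libraries to untransformed libraries of the same line in 6 pairs, and the line was therefore also fitted as a block. Deviations from group means correlated at -0.033 to 0.138 in these pairs, over 0.1 in 4 of 6. Untransformed WT replicate 1 and untransformed KO replicate 2, of different lines, correlated at 0.35. Within each group every library has a different pair of code and letter in its description, the pair by which lines were matched. The p-values therefore describe how the lines so named vary. No label says that they are separate cultures, so part of this spread may be technical. Libraries held 20270348 to 50303271 counts, which sets the counting error.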

Additional observations from a re-analysis of the deposited data

Results flagged for a closer look

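Of 84 groups of 4 libraries looked at, 4 (4.76%) held a library whose gap to its nearest neighbour exceeded 0.829 of the group's range, where chance alone gives about 1 in 20. Rap1b had 383.7 CPM in the library labelled KO p210 replicate 2, above the other KO p210 libraries at 342.6 to 349.4 CPM. Itga9 had 0.8965 CPM in KO p210 replicate 4, against 0 to 0.08726 CPM in the other KO p210 libraries. Ccr7 had 0.2244 CPM in untransformed WT replicate 1, against 0 to 0.03774 CPM in the others of its group. Cdh2 had 0.05661 CPM in untransformed WT replicate 2 and no counts in the others. The values of Itga9, Ccr7 and Cdh2 rest on few counts.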

How the results depend on the processing

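Of the values recomputed for single genes, 4820 kept their side of the threshold, 221 no longer passed and 94 newly passed. None that passed in the main or the alternative fit turned round. For values that passed in neither fit, direction was not compared. Leaving out 1 library gave 0 to 13 members for KO over WT in untransformed lines, 1 to 3 for KO over WT in p210 lines, 10 to 20 for p210 in KO lines, 16 to 19 for p210 in WT lines and 0 throughout for the difference of effects. For KO over WT in untransformed lines, the first code gave 3 and a term for a second sequencing run (chosen after seeing the data) 6. Leaving out the library labelled KO p210 replicate 2 together with untransformed WT replicate 3 gave 7. For KO over WT in p210 lines, where 2 passed, no filter on low counts gave 1, DESeq2 6 and the first code 4. In the same comparison limma-voom and a fit of the compared groups only gave 0 each, with 10 and 8 members at an unadjusted p under 0.05. No counts are given for the second code alone, since every comparison within it includes a group of 1 library. For the difference of effects DESeq2 called 2 and the first code 1, Ccr2. The cause of these shifts was not tested, beyond the fewer libraries of the codes.

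With the line as a block, 9 members passed for p210 in KO lines, of which 8 were among the 16, and 13 in WT lines. Deviations of same-numbered libraries correlated at -0.18 to 0.141, and those with the same code and letter across genotypes at -0.18 to 0.076. These ranges overlap that of the line pairs, so they do not decide whether number, code or letter pairs the samples. With a replicate block by number, 9 members passed for KO over WT in untransformed lines, 1 in p210 lines, 15 for p210 in KO lines, 16 in WT lines and 0 for the difference of effects; by code and letter the counts were 8, 1, 16, 18 and 0. Depth limits Cdh2, Ccr7 and Ccr9, for which no difference could be tested.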
